A study of Mus musculus with 12 samples.

Results

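The cell cycle and DNA replication genes were followed through the maturation of CD4 single positive (SP) thymocytes as a list of 42 gene symbols, from the G1 cyclins and their kinases to the mitotic spindle genes. For each gene the probe set that the array annotation assigned to that symbol alone and that had the highest mean over the 12 arrays was taken. Probe sets were found for 41 of the 42 genes, out of 18193 genes with such a probe set, and all 41 had a mean intensity of at least 50. No probe set was named for Ccnb1.

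Cyclin-dependent kinases, switched on by cyclins and held back by inhibitors, carry a cell from G1 through replication and mitosis. In G1, the D-type cyclins with Cdk4 and Cdk6 relieve the block on the E2F factors, which in turn drive the genes that load replication origins and make DNA, and a later wave of transcription supplies the mitotic kinases. In the thymus, cycling is greatest among early precursors and blasts, while most double positive (CD4+CD8+) and newly selected SP cells are small and quiescent.

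The thymocytes came from thymi of C57BL/6 mice aged 6 to 8 weeks, pooled before sorting, treated with anti-CD8 antibody and complement, and gated as CD4+CD8-CD25-NK1.1-. The SP1 sort took Qa-2-6C10+CD69+ cells. For SP2 the cells had lost 6C10 (Qa-2-6C10-CD69+), for SP3 they had lost CD69 as well (Qa-2-6C10-CD69-), and for SP4 they had gained Qa-2 (Qa-2+6C10-CD69-), an order proposed as successive stages of maturation. Each subset was hybridized to 3 Affymetrix Mouse Genome 430 2.0 arrays, 1 for each of 3 biological replicates (independent preparations), and there was no treatment. The gate did not remove mature T cells that had returned to the thymus, which can lie among the Qa-2+ cells of SP4. Median intensity per array was 30.5 to 32.8. Of 9 CD4 SP T cell markers, 7 had a probe set, and their summed intensity was 12628 to 16229 on every array. Of 12 double positive thymocyte markers, 11 had a probe set, and their sum ranged from 1455 in SP2 replicate 2 to 15220 in SP3 replicate 1, so transcripts of that stage were present to unequal extents. In such bulk samples, fewer cells of a type and less RNA per cell cannot be told apart.

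Promoters of the licensing genes and of the mitotic genes mostly held different motifs. They are shown as a description of the list, and a link between motifs and levels was not tested. Windows of 250 bases before and 50 bases after the start site (RefSeq, GRCm38.p6) were at hand for 35 of the 41 genes, the others being Ccnd2, Ccne2, Ccna2, Aurkb, Gmnn and Mcm4. They were searched on both strands for an E2F motif (TTTCGCGC, TTTGGCGC, TTTCCCGC or TTTGCCGC), for the cell cycle gene homology region, CHR (TTTGAA), and for CCAAT. Only exact matches inside the window were counted, so other forms of these sites would be missed. An E2F match was present in 6 of 7 licensing genes (Cdc6, Cdt1, Mcm3, Mcm5, Mcm6 and Mcm7), against 2.6% of 27025 genes. None of the 6 genes of DNA synthesis and nucleotide supply held an E2F match or a CHR. A CHR was present in 5 of 5 genes of mitotic entry and exit, each with CCAAT as well, against 8.97% of all genes with both. Of the genes for chromosomes, spindle and checkpoint, 4 of 6 held both (Bub1b, Kif11, Mki67 and Top2a). None of the 4 CDK inhibitors held an E2F match or a CHR. Over all genes the shares were 2.6% for an E2F match and 20.2% for a CHR, so absence from so few genes says little. In the sequences below, capitals mark the matches to the 3 motifs on either strand, and overlapping matches are run together. The windows are Ccnb2, chr9:70421505-70421804, minus strand; Cdk1, chr10:69352863-69353162, minus strand; Mcm5, chr8:75109259-75109558, plus strand; Mcm6, chr1:128359656-128359955, minus strand; and the first of the E2f2 windows, chr4:136172024-136172323, plus strand.
Ccnb2: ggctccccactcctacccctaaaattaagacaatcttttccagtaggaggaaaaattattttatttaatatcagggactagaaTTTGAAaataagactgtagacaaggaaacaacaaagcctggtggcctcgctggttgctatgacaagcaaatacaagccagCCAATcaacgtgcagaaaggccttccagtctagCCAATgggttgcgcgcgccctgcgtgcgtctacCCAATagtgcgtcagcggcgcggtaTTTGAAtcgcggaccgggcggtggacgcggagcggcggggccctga
Cdk1: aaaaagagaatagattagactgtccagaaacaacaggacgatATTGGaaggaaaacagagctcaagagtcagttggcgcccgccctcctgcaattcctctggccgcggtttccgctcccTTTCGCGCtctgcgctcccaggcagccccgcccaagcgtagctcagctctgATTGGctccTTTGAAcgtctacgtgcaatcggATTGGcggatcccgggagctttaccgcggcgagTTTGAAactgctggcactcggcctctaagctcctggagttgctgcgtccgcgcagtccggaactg
Mcm5: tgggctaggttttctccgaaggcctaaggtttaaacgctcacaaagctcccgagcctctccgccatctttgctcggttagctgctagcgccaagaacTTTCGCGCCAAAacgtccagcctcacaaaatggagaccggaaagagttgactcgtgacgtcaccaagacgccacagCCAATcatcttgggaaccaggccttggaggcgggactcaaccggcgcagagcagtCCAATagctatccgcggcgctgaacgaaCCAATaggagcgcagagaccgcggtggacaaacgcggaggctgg
Mcm6: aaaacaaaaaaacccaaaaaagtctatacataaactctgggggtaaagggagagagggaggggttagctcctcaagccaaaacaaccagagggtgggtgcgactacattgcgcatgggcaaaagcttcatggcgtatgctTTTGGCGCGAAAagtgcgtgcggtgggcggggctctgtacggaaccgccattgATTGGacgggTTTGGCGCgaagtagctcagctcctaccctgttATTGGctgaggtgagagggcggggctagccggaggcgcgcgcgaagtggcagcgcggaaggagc
E2f2: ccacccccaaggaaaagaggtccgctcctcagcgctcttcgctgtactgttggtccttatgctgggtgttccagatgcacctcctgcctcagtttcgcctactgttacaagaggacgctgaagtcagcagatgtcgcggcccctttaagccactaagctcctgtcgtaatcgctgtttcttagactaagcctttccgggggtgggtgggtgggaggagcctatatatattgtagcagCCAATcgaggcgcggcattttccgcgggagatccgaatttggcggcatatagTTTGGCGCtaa
The Ccnb2 and Cdk1 windows each hold 2 CHRs and 3 CCAAT matches, and Cdk1 an E2F match besides. Mcm5 and Mcm6 hold overlapping E2F matches and no CHR. Such a match is a description of the letters and was not tied to binding in these cells.

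Without the replicate number in the model, none of the 41 genes was called between subsets, and with that number as a block Ccnd2 alone was, in SP4 vs SP1 and over the 4 subsets. A call is adjusted over all probe sets, so a gene that was not called can still differ by more than the spread of its replicates. Fold changes were taken on log2(intensity + 16) with limma, 1 mean per subset, p-values being adjusted by Benjamini-Hochberg over all 45037 probe sets and called under 0.05. The count of members called was 0 of 41 in SP2 vs SP1, against 0% of all probe sets, and again 0 in SP3 vs SP2, against 0%. In SP4 vs SP3 the count was 0 against 0.16%, in SP3 vs SP1 0 against 0.0111%, in SP4 vs SP2 0 against 0.557%, and in SP4 vs SP1 0 against 1.08%. The F-test over the 4 subsets called 0 of 41, against 0.582%. At an unadjusted p under 0.05 the counts in the same order were 1 (2.75% of all probe sets), 2 (3.02%), 0 (4.76%), 0 (3%), 0 (6.41%) and 1 (7.81%), and all of these were Ccnd2 or E2f2. With the replicate number as a block the unadjusted counts were larger, 1 (8.12%), 18 (8.67%), 13 (11%), 9 (8.44%), 4 (13.7%) and 5 (16.7%). The 18 genes of SP3 vs SP2 included Cdkn2c, Cdc20, Aurkb, Ccnd3, Rrm2 and Aurka, and all but Ccnd2 were higher in SP3, while all but Ccnd2 of the 13 in SP4 vs SP3 were lower in SP4. The lowest adjusted p with the block was 0.109 in SP3 vs SP2 and 0.19 in SP4 vs SP3 (limma). The median standard error of a fold change of a member was 0.43 on the log2 scale without the block and 0.21 with it.

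The levels nevertheless ran together. The subset mean was highest in SP3 for 37 of 41 genes, and the single array SP3 replicate 1 held the highest value for 36 of them. The median difference over the members was 0.45 on the log2 scale for SP3 vs SP2, with 39 genes above 0, and -0.40 for SP4 vs SP3, with 39 below 0, against medians of -0.0032 and -0.011 over all probe sets. Higher values in SP3 than SP2 in 3 of 3 same-numbered pairs were seen for 20 genes, against 11.9% of all probe sets, and lower values in SP4 than SP3 in 3 of 3 pairs for 20 genes, against 18.1%. By replicate number the SP3 vs SP2 median was 0.89 in replicate 1, 0.31 in replicate 2 and 0.11 in replicate 3, so its size rested largely on replicate 1. The SP4 vs SP3 median was likewise -0.81, -0.28 and -0.05. Both comparisons use the same SP3 arrays.

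**Figure D1:**
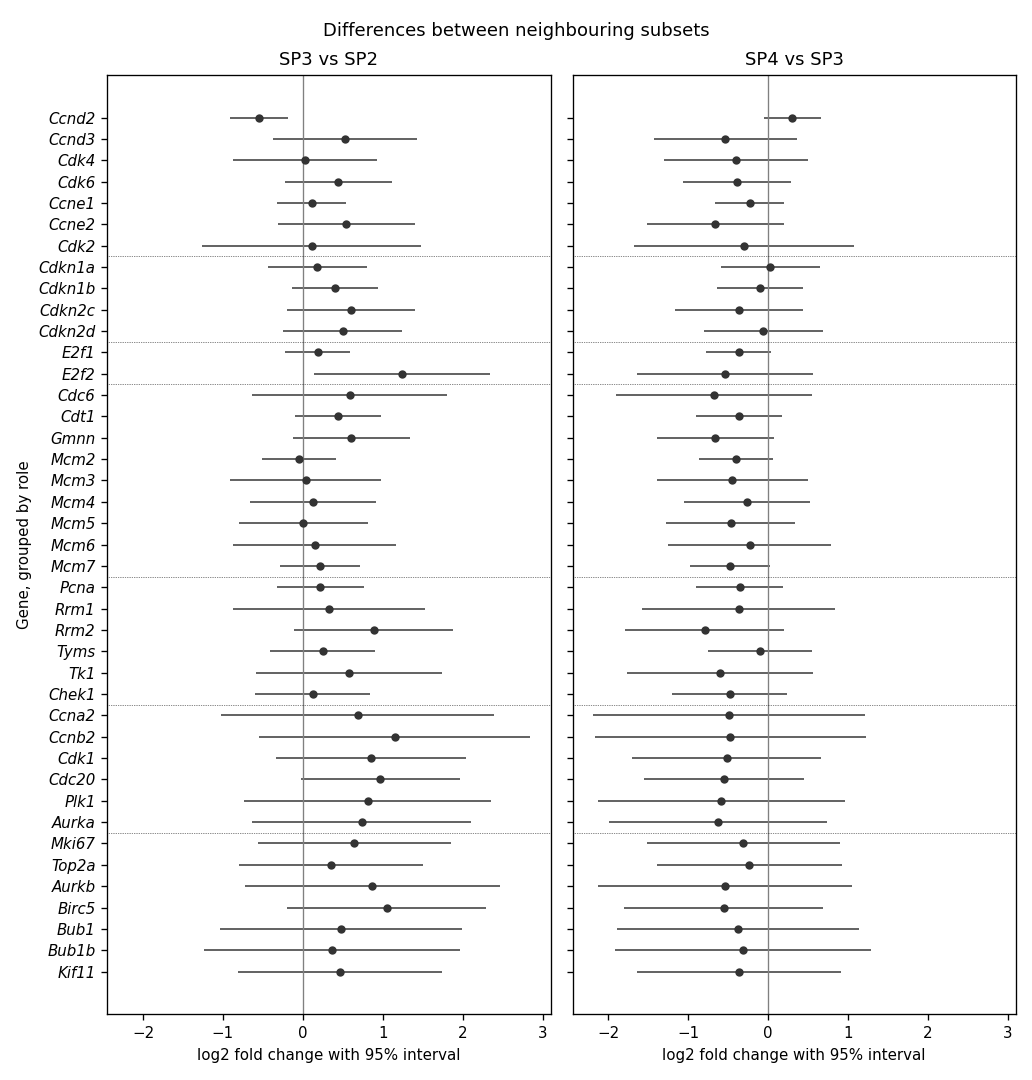
Log2 fold change of each of the 41 genes between neighbouring subsets (x axis, log2 scale) with its 95% interval, genes grouped by role (y axis). Most points lie right of 0 in SP3 vs SP2 (median 0.45) and left of 0 in SP4 vs SP3 (median -0.40). Every interval shown crosses 0 except those of Ccnd2 and E2f2 in SP3 vs SP2.

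The other comparisons had no common direction across replicates. In SP2 vs SP1 the medians were -0.39, -0.39 and 0.49 in replicates 1, 2 and 3, with 3, 8 and 40 genes above 0. In SP4 vs SP1 they were -0.42, -0.29 and 0.55. In SP3 vs SP1 they were 0.44, -0.08 and 0.52, around a pooled median of 0.29. In SP4 vs SP2 they were -0.01, 0.09 and 0.01. The array SP1 replicate 3 held the lowest value for 31 of 41 genes. With that array alone left out, the SP3 vs SP1 median was -0.12 and the SP4 vs SP1 median -0.63. Replicate 3 then stayed in the other subsets, so these medians also carry the difference between replicate numbers.

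For 37 of the 41 genes the number of the replicate took a larger share of the sum of squares than the subset did, against 63.3% of all probe sets, the exceptions being Ccnd2, E2f2, Gmnn and Mcm2. An F-test of replicate number, added after the values were seen, called 30 of 41 genes, all 30 lower in replicate 3, against 34% of all probe sets called and 16.4% called and lower in replicate 3. This test asks whether the 3 numbers differ at all, and replicate 3 against the others was not tested by itself. Called lower or higher in replicate 3 means called by this F-test, with replicate 3 below or above the mean of the others. Replicate 3 was the lowest of its subset in 4 of 4 subsets for 27 genes, against 15.4% of all probe sets. The median difference of replicate 3 from the mean of the other two was -0.90 on the log2 scale for the 41 genes and 0.01 for all probe sets. Replicate number took a median of 56.8% of the sum of squares of a member and subset 18.3%, against 38.2% and 20.2% over all probe sets. The labels call the 3 numbers biological replicates, and cells, RNA and hybridization of one number cannot be told apart here.

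**Figure D2:**
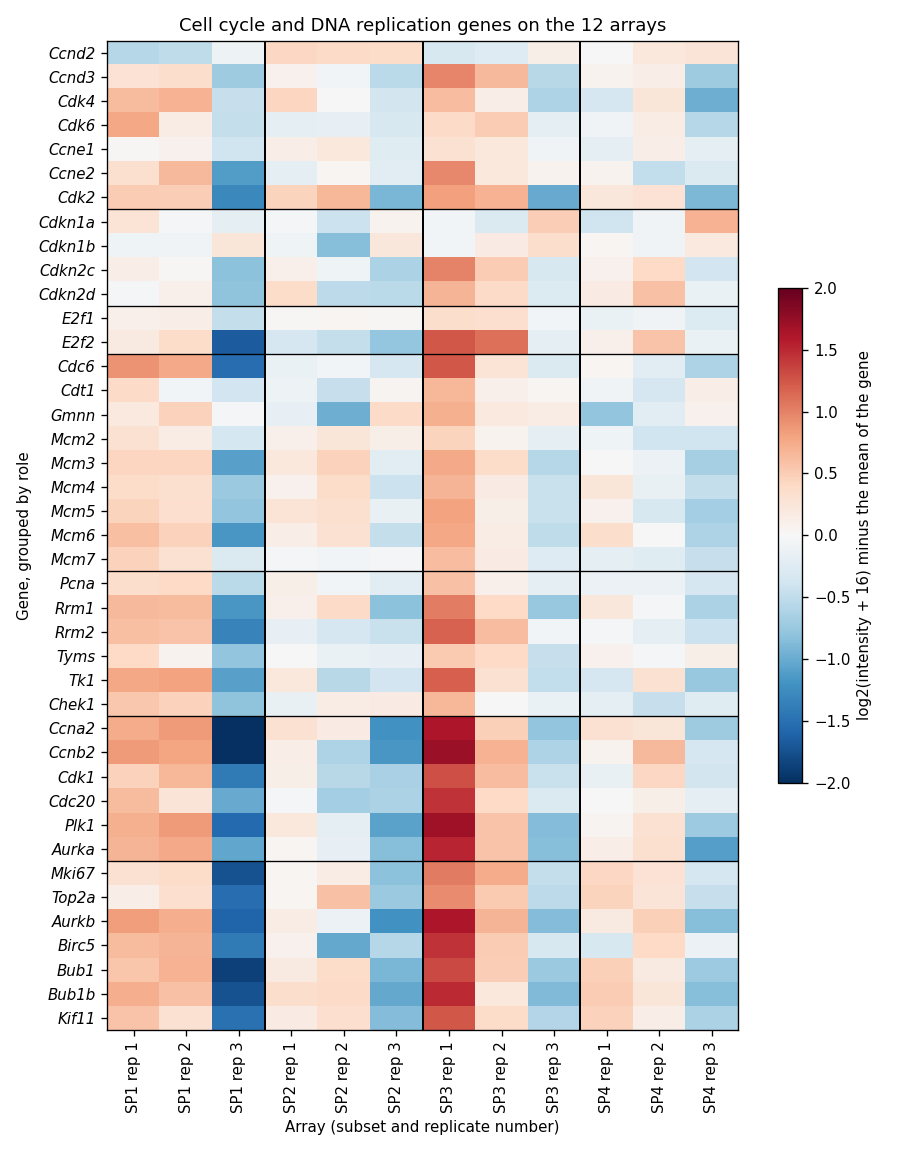
Log2(intensity + 16) of each gene minus its mean over the 12 arrays (colour, -2 to 2), genes by role in rows and arrays by subset and replicate number in columns. The third column of each subset is mostly blue, SP1 replicate 3 is the darkest blue, SP3 replicate 1 the darkest red, and Ccnd2 in the top row follows another pattern, with all 3 SP2 arrays highest.

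Ccnd2, which encodes cyclin D2, a D-type cyclin that partners Cdk4 and Cdk6, was the one member called between subsets in the fits on all 12 arrays, and only with the replicate block. Its intensity (probe set 1416122_at) was 1838, 1920.0 and 2554 in SP1, 3656, 3571 and 3534 in SP2, 2181, 2282 and 2954 in SP3, and 2702, 3149.7 and 3270.4 in SP4, in the order of replicates 1 to 3. All 3 SP2 arrays lay above the other 9, and all SP4 arrays above all SP1 arrays. SP2 exceeded SP1 by 0.78 (SE 0.16) on the log2 scale, a difference that had an unadjusted p of 0.000504 in limma and an adjusted p of 1. SP3 lay below SP2 by 0.55 (log2 fold change -0.55, SE 0.16, limma adjusted p = 1). SP4 exceeded SP1 by 0.54 (SE 0.16, limma adjusted p = 0.234). With the replicate number as a block this last difference was called (limma adjusted p = 0.0275), where 3.39% of probe sets were called higher, and so was the F-test over subsets (limma adjusted p = 0.0128 against 3.7% of probe sets). Ccnd2 was the only member called with the block. The share of all probe sets called in this way was 0.00888% in SP2 vs SP1, 0.22% in SP3 vs SP2 and 1.16% in SP4 vs SP3. It was 0.329% in SP3 vs SP1, 2.65% in SP4 vs SP2 and 5.16% in SP4 vs SP1. Subset took 78.7% of its sum of squares and replicate number 12.8%.

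Ccnd2 had 7 probe sets, all on 1 gene and so no replicates of each other. Every one was higher in SP2 than SP1, by 0.74 to 1.01 on the log2 scale, and lower in SP3 than SP2, by -0.55 to -0.98. In SP4 vs SP1, 6 of 7 were called with the block, the exception being 1416124_at (limma adjusted p = 0.182).

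Among the other G1 cyclins and kinases, Cdk4, the D-cyclin partner, had intensities of 1243, 1303 and 576 in SP1, 1073, 799 and 612 in SP2, 1228, 878 and 513 in SP3, and 626, 943 and 395 in SP4. SP1 had the highest mean, 1041 ± 404 (SD, n = 3), and SP4 the lowest, 655 ± 275, but the arrays overlapped. The SP4 vs SP1 difference was -0.65 (SE 0.41, limma adjusted p = 0.869; with the block, 0.0712). Ccnd3, Cdk6, Ccne1 and Cdk2 were also called lower in replicate 3 by the probe sets used. Of the other Cdk6 probe sets, 1460291_at was called lower and 1435338_at was not called (log2 difference -0.02, F-test of replicate number, limma adjusted p = 0.595). For Ccnd3, 1438805_at was called higher (1.30, same test, 0.000163) and 1444323_at was not called (0.0651). Cdk2, the partner of the E-type cyclins, was the clearest case. Its replicate 3 intensities were 164, 217, 203 and 219 in SP1 to SP4, and the other 8 arrays lay between 498 and 759. Replicate number took 94.4% of its sum of squares (limma adjusted p = 2.22e-06). Ccne2, a cyclin of the G1/S transition, ran from 49.2 to 260.3 and was not called in any test.

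**Figure D3:**
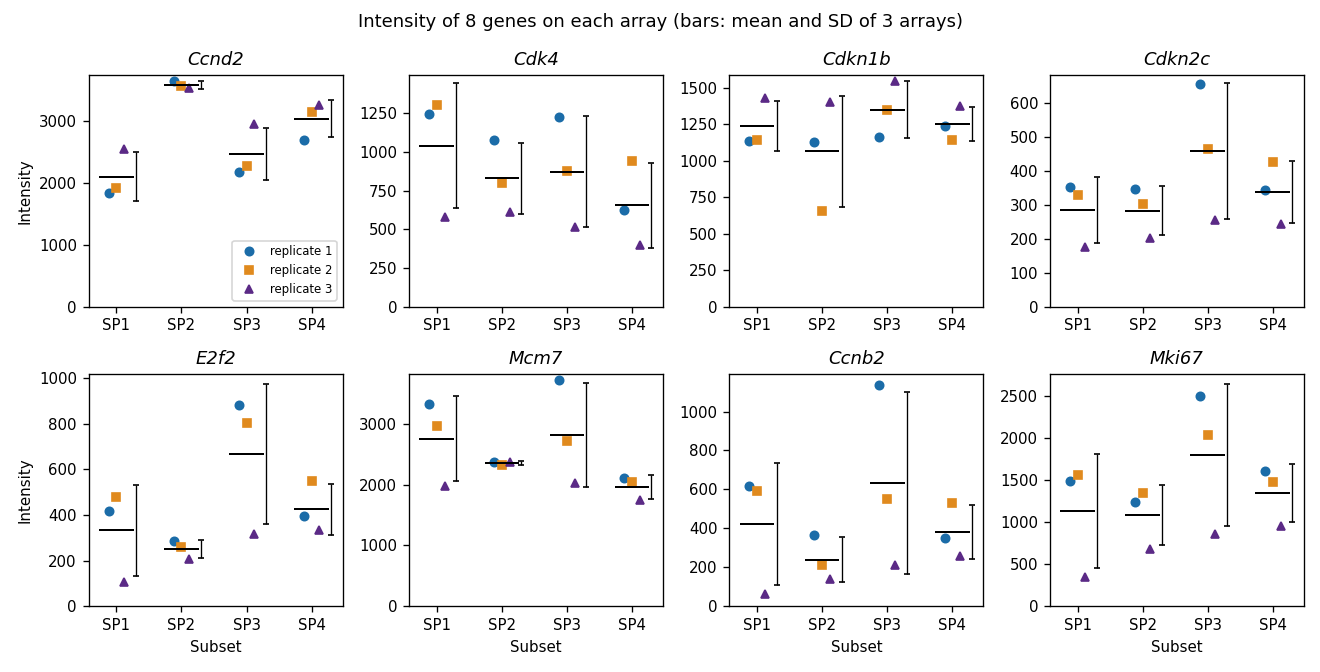
Intensity (y axis, linear, from 0) of 8 genes on each array by subset (x axis), markers by replicate number, horizontal line the mean and bar the SD of 3 arrays. Ccnd2 separates SP2 (3534 to 3656) from the rest, Cdkn1b is highest in replicate 3 of every subset, and the other 6 are lowest in replicate 3 in most subsets, though not Mcm7 in SP2.

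Among the CDK inhibitors, Cdkn2c and Cdkn2d (p18 and p19 of the INK4 family, which bind Cdk4 and Cdk6) had their highest means in SP3 and were called lower in replicate 3, like most of the list. Cdkn2c was 354, 328 and 175 in SP1, 346, 302 and 202 in SP2, 656, 465 and 254 in SP3, and 343, 427 and 243 in SP4. Cdkn2d was 798, 865 and 456 in SP1, 1048, 555 and 551 in SP2, 1305, 1063 and 663 in SP3, and 909, 1214 and 738 in SP4. SP3 exceeded SP2 by 0.60 (SE 0.36) and 0.50 (SE 0.34) on the log2 scale, each with a limma adjusted p of 1. In SP4 vs SP1 the differences were 0.25 (SE 0.36, limma adjusted p = 1) and 0.45 (SE 0.34, limma adjusted p = 0.945).

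Cdkn1a and Cdkn1b (p21 and p27, broad inhibitors of cyclin kinases, described here after their values were seen) were not called by replicate number or between subsets by the probe sets used. Another probe set of each was called higher in replicate 3. For Cdkn1a, 1424638_at differed by 0.71 on the log2 scale (F-test of replicate number, limma adjusted p = 0.0133). For Cdkn1b, 1419497_at differed by 2.93 (same test, limma adjusted p = 1.2e-08). By the probe set used, Cdkn1b was 1138, 1144 and 1434 in SP1, 1128, 657 and 1406 in SP2, 1161, 1349 and 1545 in SP3, and 1237, 1146 and 1375 in SP4. Its mean was highest in SP3, as for Cdkn2c and Cdkn2d, and SP3 exceeded SP2 by 0.40 (SE 0.25) on the log2 scale, higher in 3 of 3 pairs (limma adjusted p = 1). It was the only member with its highest value in replicate 3 in 4 of 4 subsets, against 17.7% of all probe sets. Replicate 3 lay 0.38 above the others on the log2 scale, and the F-test of replicate number did not call this probe set (limma adjusted p = 0.0699). The Cdkn1a probe set used lay between 45.9 and 119, with replicate 3 higher by 0.40, and was not called by that F-test either (limma adjusted p = 0.145). A difference between the inhibitor families was not tested.

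E2f2, an E2F factor of the activating type, had the largest SP3 vs SP2 difference in the list. Its intensity was 416, 477 and 105 in SP1, 286, 259 and 208 in SP2, 882, 801 and 318 in SP3, and 394, 548 and 333 in SP4. Every SP3 array lay above every SP2 array, as did Ccne2 and Rrm2, 3 of 41 genes against 2.91% of all probe sets. The difference was 1.24 (SE 0.50) on the log2 scale, with a limma adjusted p of 1. Without the 4 arrays of replicate 3 it was 1.57 (limma adjusted p = 0.0141), the only member called there, against 0.206% of probe sets called higher, and the F-test then called E2f2 (limma adjusted p = 0.0163) and Rrm2 (0.0449), against 1.48%. A second E2f2 probe set gave 1.26 on all 12 arrays. E2f1 was 123, 126 and 77.0 in SP1, 116, 118 and 115 in SP2, 149.7, 148 and 109 in SP3, and 102, 108 and 91.7 in SP4. SP4 lay below every SP3 and SP2 array (log2 fold change -0.37 against SP3, SE 0.19, limma adjusted p = 1).

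The 9 licensing genes (Cdc6 and Cdt1, which load the helicase onto origins, Gmnn, which blocks Cdt1, and the helicase subunits Mcm2 to Mcm7) were all below 0 in SP4 vs SP3 (median -0.45) and in SP4 vs SP1 (median -0.31), and none was called. For 8 of the 9, SP4 was lower than SP3 in 3 of 3 pairs. Mcm7 was 3317, 2968 and 1973 in SP1, 2373, 2322 and 2363 in SP2, 3711, 2712 and 2022 in SP3, and 2113, 2048 and 1743 in SP4. The SP4 vs SP1 difference of Mcm7 was -0.45 (SE 0.23, limma adjusted p = 0.73). Mcm6 ran from 494 in SP1 replicate 3 to 1925 in SP3 replicate 1, and replicate number took 81.6% of its sum of squares. Gmnn and Cdt1 stood apart from the helicase subunits. Gmnn was 654, 793 and 555 in SP1, 504, 281 and 746 in SP2, 940.2, 653 and 633 in SP3, and 322, 485 and 607 in SP4, so that replicate 3 was the highest array of SP2 and of SP4. Its SP4 vs SP1 difference was -0.52 (SE 0.33, limma adjusted p = 0.88). Cdt1 had its highest SP2 and SP4 values, 1186 and 1255, in replicate 3 as well.

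Genes of DNA synthesis and nucleotide supply had a median SP3 vs SP2 difference of 0.29 and a median SP4 vs SP3 difference of -0.42, and none was called. Tk1, thymidine kinase of the salvage pathway, was 332, 343 and 80.4 in SP1, 222, 124 and 141 in SP2, 455, 236 and 130.0 in SP3, and 146, 236 and 106 in SP4. Chek1, the kinase of the replication checkpoint, was 311, 297 and 114 in SP1, 188, 235 and 238 in SP2, 343, 210.3 and 191 in SP3, and 182, 148 and 175 in SP4. Their SP4 vs SP1 differences were -0.43 (SE 0.53, limma adjusted p = 1) and -0.36 (SE 0.33, limma adjusted p = 0.981). Tk1, Pcna (the sliding clamp), Rrm1 and Rrm2 (subunits of ribonucleotide reductase) were called lower in replicate 3, while Tyms and Chek1 were not called by the probe sets used. Another Chek1 probe set, 1450677_at, was called lower in replicate 3 (log2 difference -1.15, F-test of replicate number, limma adjusted p = 0.00185), and 1439208_at was not called (0.286). Rrm2 was 1922, 1887 and 488 in SP1, 1127, 999 and 924 in SP2, 2856, 1931 and 1213 in SP3, and 1237, 1102 and 928 in SP4, with a SP3 vs SP2 difference of 0.89 on the log2 scale (SE 0.46, limma adjusted p = 1).

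**Figure D4:**
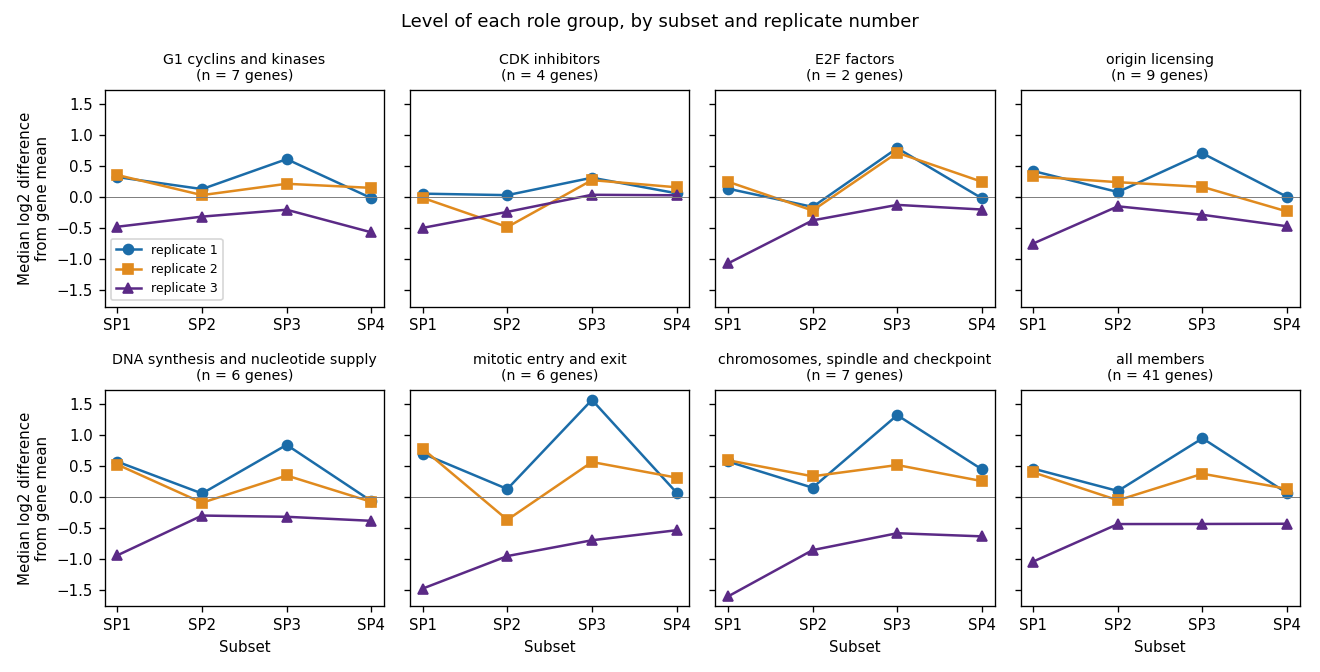
Median over the genes of each role of the log2 difference from the mean of the gene (y axis), by subset (x axis), 1 line per replicate number and 1 panel per role, with the last panel for all 41 genes. In the mitotic panel SP3 replicate 1 is at 1.57 and SP1 replicate 3 at -1.48, while the CDK inhibitor panel stays between -0.50 and 0.32.

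For the 6 genes of mitotic entry and exit the highest array was 5.79 (Cdc20) to 18.7 times (Ccnb2) the lowest. All 6 were called lower in replicate 3, with a median difference of -1.51 on the log2 scale. Ccnb2, a mitotic cyclin, was 615, 589.6 and 60.8 in SP1, 367, 211 and 139.8 in SP2, 1137, 552 and 212 in SP3, and 353, 529.8 and 259.8 in SP4. Its range was the widest of the 41 genes, that of Aurkb being next at 16.6 times. Aurka, the kinase of the spindle poles, was 239, 253 and 60.8 in SP1, 146, 125 and 72.2 in SP2, 438, 218 and 71.9 in SP3, and 158, 182 and 57.9 in SP4. Replicate 3 was lowest in every subset for both. The SP3 vs SP2 difference of Ccnb2 was 1.15 (SE 0.77) and that of Aurka 0.74 (SE 0.63), each with a limma adjusted p of 1, and in SP4 vs SP1 the values were 0.31 (SE 0.77) and -0.35 (SE 0.63), both with an adjusted p of 1. Ccna2, Cdk1, Cdc20 and Plk1 had SP3 vs SP2 differences between 0.68 and 0.97. Of the 6 genes, 5 were higher in SP3 than in SP2 in 3 of 3 pairs.

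Genes of chromosomes, spindle and checkpoint were close to the mitotic genes. Mki67, the proliferation antigen Ki-67, was 1485, 1559 and 349 in SP1, 1233, 1342 and 678 in SP2, 2493, 2028 and 859 in SP3, and 1604, 1479 and 954 in SP4. Top2a, topoisomerase II alpha, was 1372, 1584 and 424 in SP1, 1293, 1878 and 738 in SP2, 2429, 1808 and 862 in SP3, and 1710.1, 1497 and 906 in SP4. The SP3 vs SP2 difference was 0.64 (SE 0.55) for Mki67 and 0.36 (SE 0.53) for Top2a, and the SP4 vs SP1 difference 0.48 (SE 0.55) and 0.43 (SE 0.53), with a limma adjusted p of 1 in each case. Replicate 3 was called lower for 6 of the 7, all but Birc5 (survivin), and the median share of replicate number was 77.6% of the sum of squares. Aurkb, named after its values were seen, went down to 18.2 in SP1 replicate 3 against 170.2 and 157 in the other SP1 arrays.

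The remaining probe sets of the members mostly followed those described. Of 57 others, 48 had the same sign for replicate 3 and 49 for SP3 vs SP2. Among the 42 with a mean of at least 50, the counts were 40 and 37. Of these 42, 5 were called higher in replicate 3 (of Ccnd2, Ccnd3, Cdkn1a and Cdkn1b), against 17.6% of all probe sets.

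The other genes of the same pathways were counted next. Of 43 further replication genes, 40 were measured and 0 were called in any comparison, with or without the block. Their SP3 vs SP2 median was 0.20 and their SP4 vs SP3 median -0.37, and 21 of 40 were called by replicate number, all 21 lower in replicate 3. Of 52 further mitosis genes, 37 were called by replicate number and 36 of these were lower in replicate 3. Of all probe sets, 34% were called by replicate number and 16.4% were called and lower in replicate 3. None of the 52 was called between subsets without the block, and with it 3 were: 3 of 52 in SP4 vs SP1, against 5.16% of all probe sets, and Cdc25b in 3 other comparisons as well. The share in SP4 vs SP1 was thus near that of all probe sets. Cdc25b, the phosphatase that activates mitotic kinases, had a mean intensity of 119 ± 37.5 (SD, n = 3) in SP2 and 249 ± 84.0 in SP3, with a log2 fold change of 0.97 (limma adjusted p = 0.0145 with the block, 1 without) and was 1.04 higher in SP4 than in SP1 (0.000423 with the block, 0.291 without). In SP4 vs SP1 the log2 fold change was -0.77 for Kif23, a kinesin of cytokinesis, and 0.65 for Smc4, a condensin subunit (limma adjusted p = 0.0057 and 0.0168 with the block, 0.0889 and 0.0694 without).

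Of 29 further G1 and quiescence regulators, 0 were called without the block. With it, 4 of 29 were called in SP4 vs SP1, against 5.16% of all probe sets, and 3 of 29 in SP4 vs SP2, against 2.65%. Btg2 (an antiproliferative factor, 0.55), Ccng1 (cyclin G1, 0.82) and Myc (0.81) were higher in SP4 than in SP1 on the log2 scale, with limma adjusted p-values of 0.012, 0.00475 and 0.0122 with the block. In SP4 vs SP2, Ccnd1 (cyclin D1, 0.84) and Myc (0.80) were higher and E2f3 (another activating E2F, -0.60) lower, with limma adjusted p-values of 0.0123, 0.0225 and 0.0226 with the block. Cdkn1c (p57), named after its values were seen, was lower in SP4 than in SP1 (log2 fold change -0.49, limma adjusted p = 0.0126 with the block). By replicate number 16 of the 29 were called, against 34% of all probe sets. Only 6 of the 29 were called and lower in replicate 3, against 16.4%. The median difference of replicate 3 over this list was 0.05 on the log2 scale, unlike the replication and mitosis lists. Myc, a growth factor-induced transcription factor, was itself 1.48 lower in replicate 3 (F-test of replicate number, limma adjusted p = 8.38e-06).

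Markers of double positive thymocytes moved with the members in part. Their summed intensity over 11 genes was 8566, 8520 and 1746 in SP1, 3324, 1455 and 1776 in SP2, 15220 (the highest), 8888 and 3501 in SP3, and 4259, 4278 and 1809 in SP4. It was thus highest on the array where 36 members were highest. The lowest arrays differed: the sum was lowest in SP2 replicate 2, where the median log2 difference of the members from their means was -0.05. That median was lowest in SP1 replicate 3, at -1.045. Of the 11 markers, 9 were called lower in replicate 3, against 16.4% of all probe sets, and the median SP3 vs SP2 difference was 2.26. Defining markers ranged widely: Rag1 was 20.0 to 2280.3, and Cd8a 16.3 to 1838. Their lowest values were below the median intensity of an array (30.5 to 32.8), so on the low arrays they were near the floor. With the block, 2 of the 11 were called higher in SP3 than in SP2, against 0.0888% of all probe sets. These were Cd8a (2.28, limma adjusted p = 0.0468) and Cd8b1 (2.44, 0.0347). B cell markers, 5 of 6 measured, also summed to less in SP1 replicate 3 (842) than in the other SP1 arrays (3132 and 3557). Their sum was lower still in SP2 replicates 2 and 3 (685 and 790). For 7 thymic stroma markers the sum was 236 to 261 in replicate 3 and 443 to 596 on the other arrays. A list for NKT and similar cells, 5 of 6 genes measured, summed to 1155 to 1533 in SP4 and 99 to 404 elsewhere. Without the block, 3 of these 5 genes were called higher in SP4 vs SP1, 4 in SP4 vs SP2 and 1 in SP4 vs SP3. The part of any of these cell types in the values of the cell cycle genes or in the SP4 calls was not tested.

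**Figure D5:**
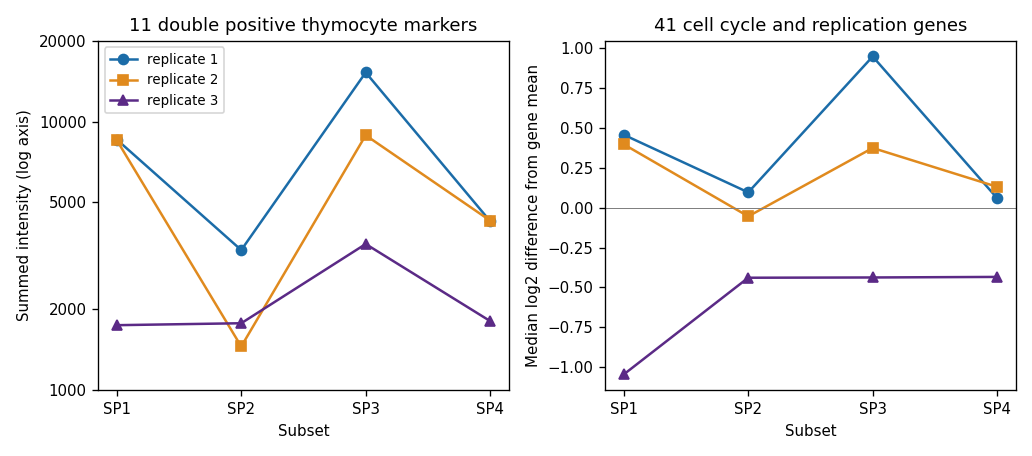
Left, summed intensity of 11 double positive thymocyte markers (y axis, log scale) by subset (x axis) and replicate number. Right, the median log2 difference of the 41 cell cycle genes from their means on the same arrays. SP3 replicate 1 is the highest array in both panels, at 15220 on the left and 0.95 on the right, and the replicate 3 line is the lowest in both panels except at SP2 on the left.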

How the data were processed

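Total RNA of sorted subsets was labelled with biotin and hybridized to 12 arrays. The deposited values are normalized intensities on a linear scale, 1 per probe set. Per the labels they were made with MAS5, whereas the authors' methods name Robust Multi-array Analysis in Bioconductor, and which of these gave the table was not settled. All of its columns were used. Of 45037 probe sets, 34945 named 1 gene, 932 several and 9160 none in the platform annotation. Samples were grouped by their titles. Values were tested as log2(intensity + 16) with limma 3.58.1 (lmFit and eBayes with a mean-variance trend, R 4.3.3) over all 12 arrays, 1 mean per subset, with 8 residual degrees of freedom, as the methods compare subsets unpaired. The script was tested on simulated data. p-values measure the spread between 3 pooled preparations a subset, and the number of arrays limits the precision.

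Replicate numbers were checked for pairing: deviations from the subset means correlated at 0.279 to 0.883 between arrays of the same number, every pair being above 0.1. Arrays of replicates 1 and 2 also correlated with each other, at 0.178 to 0.729, and arrays of replicate 3 with those of 1 or 2 at -0.81 to -0.39, so replicate 3 stood apart from the other two. A fit with the number as block (residual degrees of freedom 6) was run. Alternatives were offsets of 1 and 64, no trend, quantile normalization, a minimum mean of 50, other probe sets of a gene, left-out arrays and pairwise fits. Every array value is given for members called between subsets, without or with the block, and otherwise for the 2 of each role with the largest SP4 vs SP1 change, and of other pathway genes at most 8 called ones by size. The members and lists were chosen with earlier results of these data known.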

Additional observations from a re-analysis of the deposited data

How the results depend on the processing

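With the replicate block, 1 member was called in SP4 vs SP1 and 1 by the F-test over the 4 subsets, in place of 0 and 0, and both were Ccnd2 (SP4 vs SP1 log2 fold change 0.54, limma adjusted p = 0.0275, against 0.234 without the block and 0.122 to 1 under the other alternatives). The block changed no other call among the 41 genes. When arrays were left out, the number of members called ranged from 0 to 1 in SP3 vs SP2 and from 0 to 2 in the F-test, the highest counts being those without replicate 3, and it was 0 in every other comparison. No other alternative gave a call, and no called value changed sign, but the sign of the median of the members changed in every comparison but SP3 vs SP2 and SP4 vs SP3, with a range of -0.54 to 0.15 in SP2 vs SP1 and of -0.63 to 0.16 in SP4 vs SP1 when arrays were left out. The median stayed above 0 in SP3 vs SP2 (0.15 to 0.77) and below 0 in SP4 vs SP3 (-0.77 to -0.11) under every alternative. It moved in SP3 vs SP1 (-0.12 without SP1 replicate 3, 0.67 without SP3 replicate 3), in SP4 vs SP1 (-0.63 without SP1 replicate 3) and in SP4 vs SP2, from -0.17 when SP2 replicate 3 was left out to 0.20 when SP4 replicate 3 was. Leaving out a single array makes the replicate numbers unequal between subsets, so these medians also carry the difference between replicate numbers. The cause was not tested. The median SE of a member was 0.43 on the log2 scale without the block, which includes the difference between replicate numbers, and 0.21 with it.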

Other observations

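Probe sets of 1 gene did not always give replicate 3 the same direction, an observation made after the values were seen. The adjusted p-values below are from the F-test over the 3 replicate numbers, not from a test of replicate 3 against the others. For Cdkn1b, the probe set 1419497_at had intensities of 27.0 to 59.1 on the 8 arrays of replicates 1 and 2 and of 383 to 428 on the 4 arrays of replicate 3, a difference of 2.93 on the log2 scale (limma adjusted p = 1.2e-08). The brighter Cdkn1b probe set, 1434045_at, differed by 0.38 between the same arrays (limma adjusted p = 0.0699). For Ccnd3, a D-type cyclin, 1415907_at was 571 to 651 in replicate 3 and 912 to 1884 in the others, whereas 1438805_at was 800 to 971 in replicate 3 and 248 to 577 in the others (log2 differences of -0.94 and 1.30, limma adjusted p = 0.00024 and 0.000163). For Ccnd2, 1448229_s_at and 1416123_at were higher in replicate 3 by 1.51 and 1.58 (limma adjusted p = 2.74e-05 and 5.11e-06), against 0.24 for 1416122_at (0.132). In all, 38 of the 57 probe sets of members that were not used were called by replicate number, against 34% of all probe sets. Of the 57, 7 were called and higher in replicate 3, against 17.6% of all probe sets, so such calls were no more frequent than elsewhere. The opposite sign of the one used was seen for 9, 2 of these with a mean of at least 50.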
